A study of Mus musculus with 22 samples.

Results

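Pcp2, Car8, Ppp1r17, Itpr1, Skor2 and Slc1a6, 6 genes that serve as landmarks of the Purkinje cell, were followed through the whole mouse brain. The list was made by gene name. All 6 genes had a probe with a RefSeq identifier, out of 20129 genes read in this way, and each was read from the RefSeq probe whose median over the 22 arrays was highest. Purkinje cells are the large inhibitory neurons of the cerebellar cortex and its only output. They receive glutamate from granule cell axons and climbing fibres, and release calcium from internal stores through the inositol trisphosphate receptor. In the first postnatal weeks of the mouse they settle into a single layer and grow their dendrites.

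Transcriptome Tomography slices a brain along 1 body axis, pools the slices into slabs called fractions, and measures the RNA of each fraction on a microarray. The 22 fractions came from 3 male C57BL/6J mice, an inbred strain: 10 fractions of 1 mouse cut coronally, 6 of another cut horizontally and 6 of the last cut sagittally. The labels are at odds on age, with 7 days in the sample titles and 3 days in the age field. The study's own list of brains gives 22 fractions for the 7-day brain. The labels did not say at which end of the brain fraction 1 lay. Each fraction was pooled from slices of 5 µm, was hybridised once and had no replicate, and most were single slabs, but coronal fraction 10 pooled slabs 10 and 11, sagittal fraction 1 slabs 1 and 2, and sagittal fraction 6 slabs 7 to 9. Each plane was cut in 1 animal. A fraction held every cell type of its slab, so fewer Purkinje cells and less RNA per cell cannot be told apart.

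A level below is a spot's processed intensity on the log2 scale, taken relative to the 75th percentile of its array, so 0 is the level of that percentile and 1 unit is a 2-fold step. Levels were compared between fractions for 1 probe, never between probes. A probe was detected where the scanner software marked it well above background. Between 29596 and 41947 of 55600 probes were detected on an array. On 7 arrays (coronal 1 and 2, horizontal 1, 2 and 3, sagittal 1 and 3) the slope of the spike-in controls was out of range, and these arrays had 36107 to 41947 detected probes against 29596 to 36330 on the other 15.

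Pcp2, Car8, Itpr1 and Slc1a6 were detected in all 22 fractions, Ppp1r17 in 18 and Skor2 in 4. Each was measured by 1 spot per array. Where detected, the spot error that the scanner software attached to a signal was 10.0% to 10.1% for Pcp2, Car8, Itpr1 and Slc1a6, up to 20.4% for Ppp1r17 and 12.4% to 17.6% for Skor2. This error covers neither labelling nor differences between animals.

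To read where a gene lay, fractions were classed from marker genes that include none of the 6. The granule cell lineage list (10 genes, among them Atoh1, Neurod1, Gabra6 and En2, which mark granule cells, their precursors or the cerebellum) placed coronal fractions 1 to 4 as cerebellar. Its mean lay 0.12 to 1.84 log2 units below the genes' own highest values there and 3.67 to 3.90 below in fractions 5 to 10. The telencephalon list (among its genes Emx1, Tbr1, Neurod6 and Lhx2) placed coronal fractions 4 to 10 as telencephalic, so fraction 4 held both. The same lists separated the horizontal plane only in part and the sagittal plane not at all. All 6 sagittal fractions counted as both cerebellar and telencephalic. Horizontal fractions 2 to 5 counted as cerebellar and 1 to 5 as telencephalic, so fraction 1 was telencephalic alone and fraction 6 was neither.

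A gene was called confined when every coronal fraction outside the cerebellar ones lay at least 3 log2 units below its own maximum or was not detected. By this rule Pcp2 and Skor2 were confined to the cerebellar slabs, 2 of 6. Car8, Ppp1r17, Itpr1 and Slc1a6 were not. Confined does not mean absent, since Pcp2 was detected in all of fractions 5 to 10. The share of all probes that meets this rule, or the rule for a rise, was not computed, so these counts have no baseline. In the horizontal series only fractions 1 and 6 lay outside the cerebellar ones. There the rule gave the same split, with Pcp2 at least 3.02 units below its maximum. A rise in forebrain was counted when a telencephalic, non-cerebellar fraction stood at least 1 log2 unit above the lowest fraction between it and the cerebellar slabs. Ppp1r17 alone of the 6 met it, whereas with each array centred on its median Pcp2 and Itpr1 also met it, and without scaling Itpr1 did. Against an undetected fraction 9 the rise of Ppp1r17 in fraction 10 is known only as a bound, at least 1.99 units, and with normexp background correction it was 1.01 units.

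**Figure D1:**
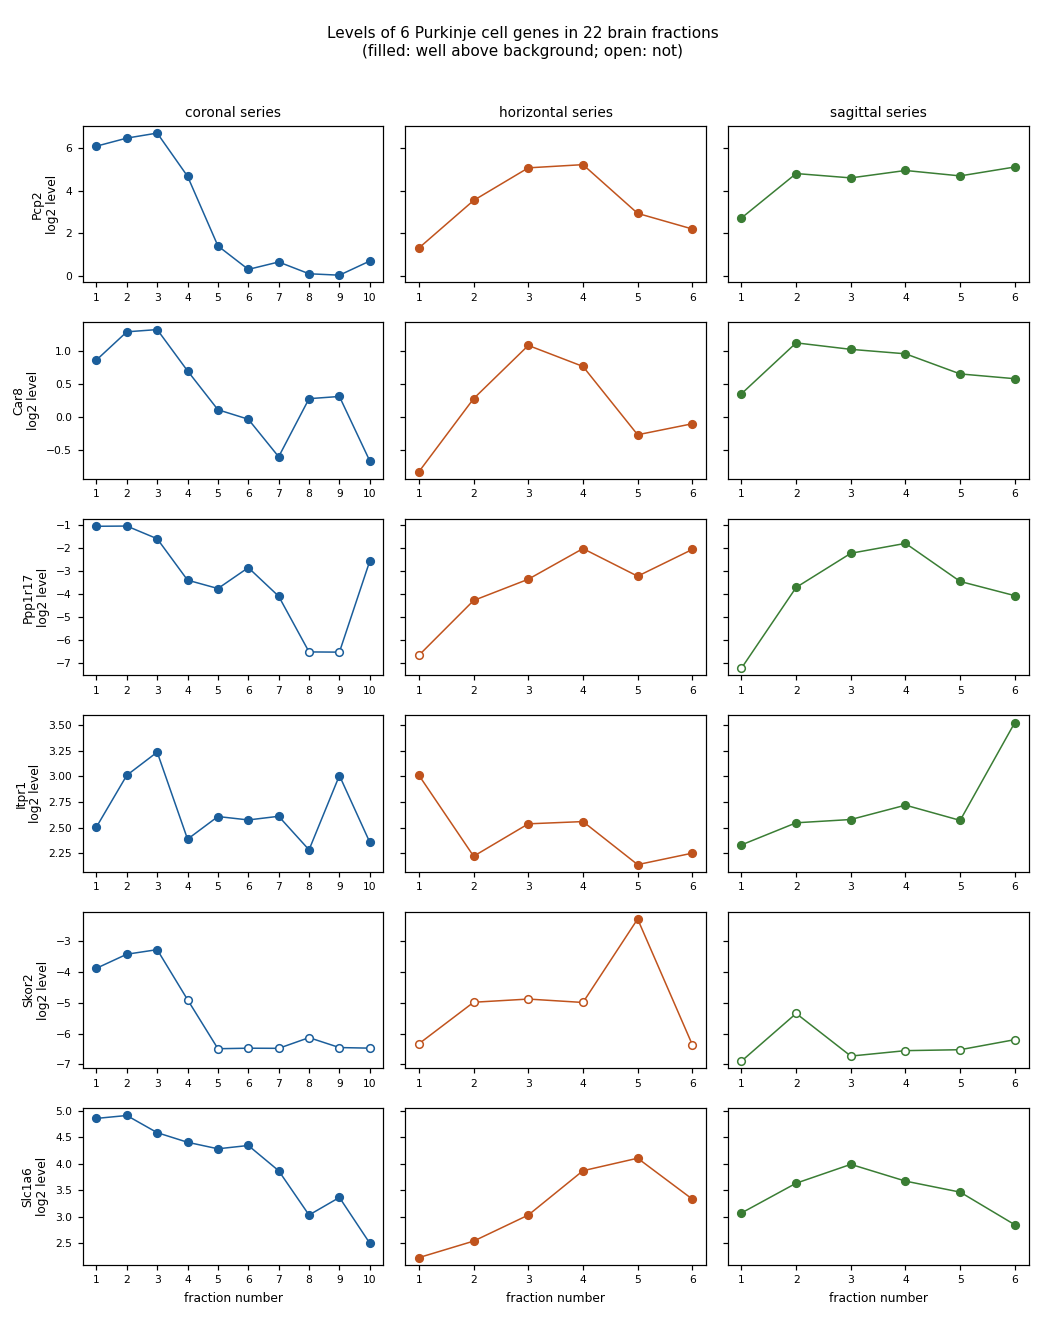
Log2 level (y axis) of each gene in each fraction (x axis, fraction number) of the coronal, horizontal and sagittal series, 1 array per point with no replicate. Filled points were well above background and open points were not. Pcp2 and Skor2 are high in coronal fractions 1 to 3 and low from fraction 5 on, whereas Slc1a6 declines over the whole series and Itpr1 stays between 2.28 and 3.24.

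Pcp2 (L7), a modulator of Gi/o signalling, is the classical Purkinje cell transcript, and its upstream region is the one widely used to drive transgenes in these cells. It is shown here because Pcp2 gave the steepest profile of the 5 tested genes. The 250 bases before its most upstream RefSeq start lie at chr8:3625548-3625797 on the minus strand of GRCm38.p6, outside the annotated gene, which ends at 3625547. Capitals mark AGGTCA, the core half-site bound by ROR nuclear receptors such as Rora, and read 5′ to 3′ on the gene's strand the motif began 12 bases before the start site.
Pcp2: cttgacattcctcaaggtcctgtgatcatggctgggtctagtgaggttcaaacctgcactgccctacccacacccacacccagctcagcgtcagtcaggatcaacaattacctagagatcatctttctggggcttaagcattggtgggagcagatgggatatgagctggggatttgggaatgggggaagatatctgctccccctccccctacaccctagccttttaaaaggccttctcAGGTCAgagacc
AGGTCA, searched on both strands, was in 14.0% of the 32851 upstream windows of this length in the RefSeq table, so its presence is a description and not evidence of a site. Of the 6 genes, 2 had an entry in that table. The Slc1a6 window held no AGGTCA, and it is not printed because it overlaps the annotated gene.

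Pcp2 had levels of 6.08, 6.46, 6.70 and 4.67 in coronal fractions 1 to 4. In fractions 5 to 10 it had 1.40, 0.30, 0.64, 0.09, 0.02 and 0.69. The lowest cerebellar fraction was thus 3.27 units, or 9.66-fold, above the highest of the others, with no overlap. Between its extremes, fractions 3 and 9, Pcp2 differed 102-fold (6.68 units). Fractions 1 to 3 lay within 0.62 units of each other, less than the residual SD of 1.02 around the fitted curve. The last fraction was 0.66 units above the one before it, which is also within that SD. The SD includes misfit of the smooth curve and is not the error of a single fraction. Along the coronal series the linear term was -7.73 ± 0.98 (SE) from first to last position, adjusted p = 0.00068 (limma F test on the linear and quadratic terms), and 99.9% of the probes tested had a smaller fitted coronal range.

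In the horizontal series Pcp2 had 1.30, 3.54, 5.07, 5.22, 2.93 and 2.19, highest in fractions 3 and 4. These are the fractions in which the granule lineage list was also highest. The adjusted p for horizontal position was 0.083. In the sagittal series Pcp2 had 2.71, 4.80, 4.59, 4.94, 4.69 and 5.11. Sagittal fraction 1 stood apart, on an array with an out-of-range spike-in slope, and neither the linear (adjusted p = 0.38) nor the quadratic term (adjusted p = 0.70) passed the threshold.

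Skor2, a nuclear co-repressor of the Ski family that Purkinje cells need to mature, was also highest in coronal fractions 1 to 3, and its probe was mostly near background. It had -3.88, -3.42 and -3.27 in coronal fractions 1 to 3 and was not well above background in any of fractions 4 to 10. Its measured values there were -4.90 in fraction 4 and -6.49 to -6.13 in fractions 5 to 10. Against the detection floor, fraction 3 was at least 2.58-fold higher than fraction 5. Confinement of Skor2 therefore rests on non-detection, since by level alone fraction 8 lay only 2.86 units below the maximum, short of 3. That value was itself not above background. The detection floor in fractions 5 to 10 was -4.98 to -4.32, too near the maximum for a drop of 3 units to be shown. It was not detected in any sagittal fraction, so it did not pass the filter (detection in 1 or more fractions of all 3 series) and had no test in the main fit. Without the filter its adjusted p for coronal position was 0.039. In the horizontal series it was detected in fraction 5 alone, at -2.28, which exceeded every coronal value. Fraction 5 was at least 6.06-fold above fraction 3 and at least 4.84-fold above fraction 6, and it is not one of the fractions where Pcp2 was highest.

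Ppp1r17 (G-substrate), an inhibitor of protein phosphatases that is phosphorylated by cGMP-dependent protein kinase in Purkinje cells, had -1.04, -1.03 and -1.59 in coronal fractions 1 to 3. It then had -3.39, -3.75, -2.84 and -4.09 in fractions 4 to 7, was not detected in fractions 8 and 9 (-6.51 and -6.52) and had -2.56 in fraction 10. The profile thus had its main peak at the cerebellar end and 2 further high points, at fractions 6 and 10. Fraction 10 was at least 3.96-fold above fraction 9 and 2.29-fold above fraction 5. Fraction 6 was 2.37-fold above fraction 7 (1.24 units) and 0.91 units above fraction 5. The residual SD of Ppp1r17 around the fitted curves was 1.14, which includes misfit of the curves and values of undetected spots. Fraction 6 is not shown to lie beyond this scatter. With 1 array per fraction, the step at fraction 10 was not tested either. The highest cerebellar fraction was 1.52 units above fraction 10.

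For coronal position the linear term of Ppp1r17 was -4.20 ± 1.10 (SE), adjusted p = 0.022 (limma F test). In the horizontal series it was not detected in fraction 1 (-6.65) and had -4.27, -3.35, -2.01, -3.22 and -2.05 in fractions 2 to 6, adjusted p = 0.085. Fraction 6, which was not cerebellar by the granule list, was as high as fraction 4 within 0.04 units. In the sagittal series it was not detected in fraction 1 (-7.22), and had -3.70, -2.22, -1.79, -3.44 and -4.06 in fractions 2 to 6, highest in fraction 4. The quadratic term, which sets the middle against both sides, was -3.44 ± 1.05 (SE) but missed the threshold at adjusted p = 0.14.

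Slc1a6 (EAAT4), the glutamate transporter of Purkinje cell dendrites and spines, was detected everywhere and had a graded profile. Its coronal levels were 4.86, 4.91, 4.59, 4.41 and 4.28 in fractions 1 to 5. In fractions 6 to 10 they were 4.35, 3.87, 3.03, 3.36 and 2.50. No step marked the end of the cerebellar slabs, since fraction 6 was only 0.57 units below the maximum. The lowest values came at the far telencephalic end, 5.34-fold below the maximum. The linear term was -2.34 ± 0.27 (SE), adjusted p = 0.00054 (limma F test), with a residual SD of 0.26, the smallest of the 5 genes tested.

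Slc1a6 was also the one gene of the 5 tested whose horizontal position effect passed the threshold. It had 2.23, 2.54, 3.03, 3.87, 4.11 and 3.33 in horizontal fractions 1 to 6, with a linear term of 1.58 ± 0.32 (SE) and adjusted p = 0.021. Its peak was in fraction 5, later than that of Pcp2. On the 15 arrays with an in-range spike-in slope, which keep 3 horizontal fractions (4 to 6), its adjusted p was 0.96 and the linear term over those fractions changed sign. The horizontal call was also lost with the linear term alone, with the horizontal arrays alone and with a spike-in control as a covariate. It was lost too without horizontal fraction 1 or 5. In the sagittal series it had 3.07, 3.63, 3.99, 3.67, 3.47 and 2.85, highest in fraction 3, and the quadratic term was -0.83 ± 0.26 (SE) with adjusted p = 0.15.

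Itpr1, the inositol trisphosphate receptor that releases calcium from the endoplasmic reticulum and is very abundant in Purkinje cells, had the smallest fitted coronal range of the 5 tested genes. Its coronal levels were 2.51, 3.01, 3.24, 2.39 and 2.61 in fractions 1 to 5. In fractions 6 to 10 they were 2.58, 2.61, 2.28, 3.01 and 2.36. The highest values were in fractions 3 and 2 but fraction 9, at the telencephalic end, was level with fraction 2. The whole coronal spread was 0.95 units (1.93-fold). The linear term was -0.31 ± 0.31 (SE), adjusted p = 0.67, and 10.6% of the probes tested had a smaller fitted coronal range. In the horizontal series its highest level, 3.01, was in fraction 1, where Pcp2, Car8, Ppp1r17 and Slc1a6 each had their lowest. Fractions 2 to 6 held 2.14 to 2.56. In the sagittal series fraction 6 had 3.52 and fractions 1 to 5 had 2.33 to 2.72. No position term of Itpr1 passed the threshold.

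Car8, a carbonic anhydrase-related protein without enzyme activity that binds the receptor encoded by Itpr1 and lowers its affinity for its ligand, lay between these patterns. It had 0.87, 1.30, 1.33 and 0.70 in coronal fractions 1 to 4, then 0.11, -0.03, -0.61, 0.28, 0.31 and -0.67 in fractions 5 to 10. The cerebellar fractions were all above the others, by 0.39 units at the closest pair, less than the residual SD of 0.44. The shoulder at fractions 8 and 9 stood 0.92 units above fraction 7 and so fell just short of the rule for a rise in forebrain. The linear term was -1.70 ± 0.43 (SE), adjusted p = 0.034 (limma F test).

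Another Car8 probe, with a lower median level, correlated with the first at r = 0.88 over the 22 arrays and gave -0.73, -0.03, 0.07 and -1.11 in coronal fractions 1 to 4. It gave -1.61, -2.17, -1.98, -1.92, -2.38 and -3.15 in fractions 5 to 10, without the shoulder at fraction 9. Its linear term was larger, -2.88 ± 0.40 (SE), adjusted p = 0.0014. Under both probes Car8 was not confined. In the horizontal series the first probe had -0.83, 0.28, 1.09, 0.77, -0.27 and -0.10 (adjusted p = 0.097), again highest in fraction 3, and sagittal levels spanned 0.35 to 1.13 with no term past the threshold.

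**Figure D2:**
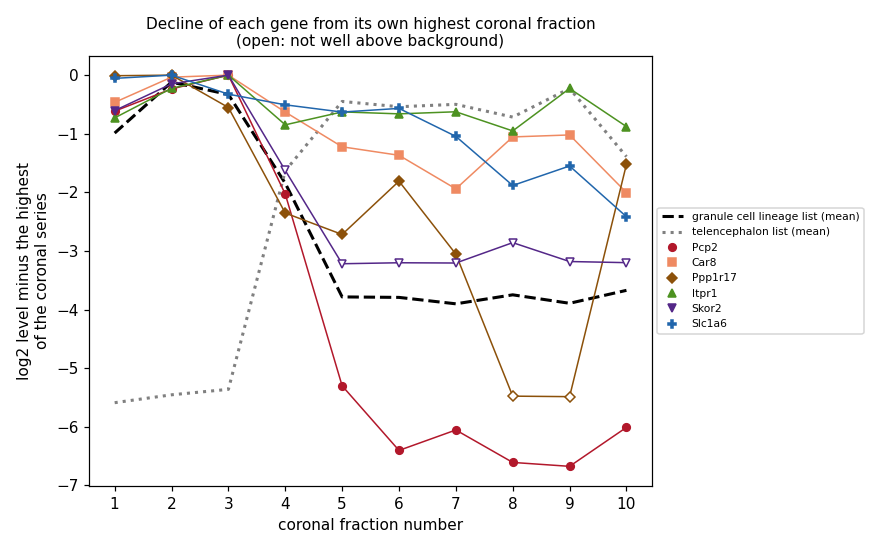
Log2 level of each gene minus its own highest coronal level (y axis) against the coronal fraction number (x axis), 1 array per point, open where not well above background. The dashed and dotted lines are the means of the granule cell lineage and telencephalon lists on the same scale. Pcp2 follows the dashed line and drops below it, Ppp1r17 returns to 1.52 units below its maximum in fraction 10, and Itpr1 stays within 0.95 units.

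Of the 5 genes that passed the filter, 4 (Pcp2, Car8, Ppp1r17 and Slc1a6) passed the threshold for coronal position, all with higher levels at low fraction numbers. Among all 39602 probes tested, 19.8% passed it, 7.44% with a negative and 12.4% with a positive linear term. The median linear term was -2.34 over the 5 genes and -0.14 over all probes. For horizontal position 1 of 5 passed (Slc1a6), against 6.57% of all probes. For the sagittal linear term 0 of 5 passed against 10.2%, and for the sagittal quadratic term 0 of 5 against 0.0303%. The split of coronal calls depended on the scaling. Positive linear terms made up 62.5% of calls here, 82.3% when each array was centred on its median and 52.0% without scaling, and median centring moved the median coronal linear term over all probes from -0.14 to 0.32. The 4 linear terms stayed negative under every scaling tried.

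The coronal calls of Pcp2 and Slc1a6 held under every alternative tried, with adjusted p of at most 0.037 and 0.035. Those of Car8 and Ppp1r17 were lost when each array was centred on its median (adjusted p = 0.14 and 0.083), on the 15 arrays with an in-range slope (0.12 and 0.20), with the slide as a block (0.18 and 0.15) and without coronal fraction 2 (0.097 and 0.064). Ppp1r17 is dim, and with another background correction its linear term was -1.48. Coronal fractions 1 and 3 to 8 were on 1 slide, fraction 2 was on another, and fractions 9 and 10 were on a further one. Slide was thus confounded with position. A call lost with the slide as a block, here or in the lists below, cannot be put down to either. Within the slide of fractions 1 and 3 to 8, Pcp2 had 4.67 to 6.70 in fractions 1, 3 and 4 and 0.09 to 1.40 in fractions 5 to 8.

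Marker genes of other cell types were measured in the same slabs, and several lists moved with these genes. Of the granule lineage list, 8 of 9 tested genes passed the coronal threshold, all with negative linear terms (4 with median centring and 3 with the slide as a block). The share of all probes past it was 19.8%, 7.29% and 4.03% in these 3 settings, which applies to each list here. The mean level of the granule list was 0.33 to 2.06 in coronal fractions 1 to 4 and -1.73 to -1.50 in fractions 5 to 10. The same list set which fractions counted as cerebellar, so this gap was fixed in advance and is no separate result. The 5 hindbrain genes with a probe (among them Hoxa5, Hoxb5, Hoxb3 and Hoxc4) passed likewise, with a mean of 2.64 in fraction 1 and -0.19 in fraction 2. Of the 4 Bergmann glia genes 3 passed, all counted as negative, though the term of Fabp7 was only -0.24 and its highest coronal fraction was 10. The last, Slc1a3, did not pass and had a term of 0.42. Of 4 genes of cerebellar interneurons and nuclei 3 passed, Ptf1a and Lmx1a with negative terms (-3.76 and -3.23) and Meis2 with a positive one (2.64), and Lmx1a was highest in fraction 5. The part of these cells in the levels of the 6 genes was not tested.

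A wider list held 26 other genes used as Purkinje cell markers. Of the 25 tested, 16 passed the coronal threshold, 12 with a negative and 4 with a positive linear term. Among all probes 19.8% passed it, 7.44% with a negative and 12.4% with a positive term. The median term of the list was -0.67. Under median centring 8 passed (3 negative, 5 positive), against 7.29% of all probes, and with the slide as a block 5 (2 negative, 3 positive) against 4.03%. Lhx5 and Lhx1, homeobox regulators of Purkinje cell differentiation, had terms of -4.77 ± 0.62 and -3.47 ± 0.39 (SE). Pvalb and Calb1, which encode calcium buffers of these cells, had -4.39 ± 0.90 and -2.97 ± 0.41 (SE). Ebf2, a transcription factor of a subset of Purkinje cells, had -3.13 ± 0.50 (SE). These 5 had adjusted p between 0.0004 and 0.012 and were highest in coronal fractions 1 to 3. Pvalb (0.059) and Ebf2 (0.057) lost the call with median centring, and all but Lhx1 lost it with the slide as a block.

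Foxp2 and Doc2b went the other way. Foxp2, a forkhead transcription factor, rose along the coronal series by 1.79 and Doc2b, a calcium sensor of vesicle release, by 1.68, with adjusted p of 0.018 and 0.008. Cacna1a, the P/Q-type calcium channel subunit, is counted among the 12 negative terms, but its term was -0.06 and turned to 0.40 with median centring, so it has no settled direction. Plcb3 and Pcp4 had the smallest fitted coronal ranges, 0.20 and 0.24 units, with adjusted p of 0.69 and 0.75. For horizontal position 5 of the 25 passed, against 6.57% of all probes, 4 with a positive term (Pcp4, Aldoc, Rgs8 and Inpp5a) and Gng13 with a negative one (-0.78, adjusted p = 0.034).

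**Figure D3:**
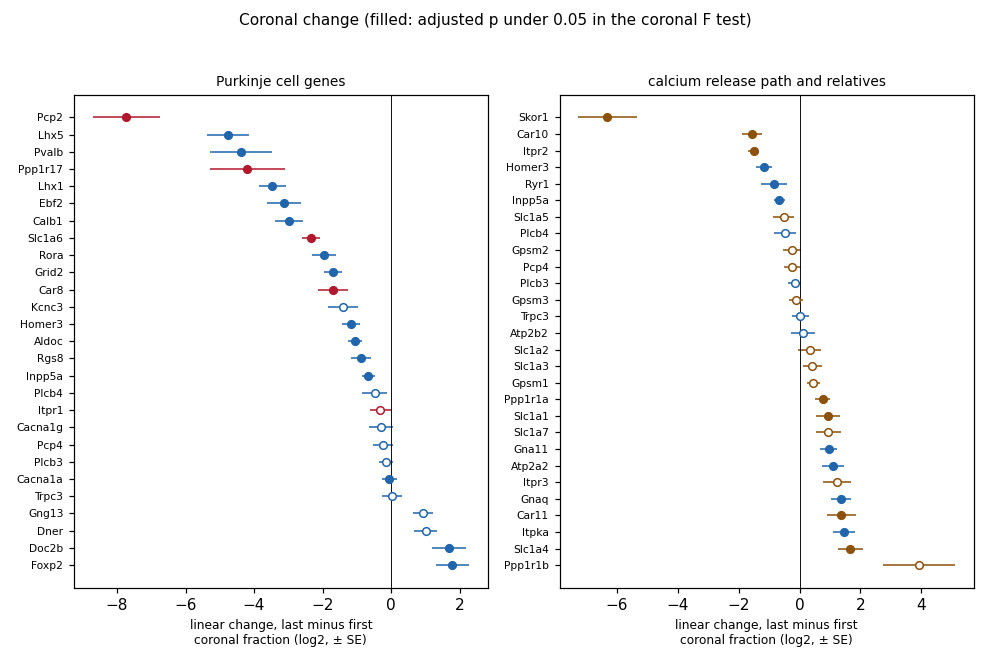
Fitted linear change from the first to the last coronal fraction (x axis, log2 units, bars are the SE of the fit over 22 arrays) for tested genes of the lists (y axis). Left: the 5 tested Purkinje cell genes in red and the wider Purkinje list in blue. Right: the calcium release path in blue and family relatives in brown. Filled points passed the coronal F test. Pcp2 lies farthest to the left at -7.73, and Itpr1 is open and near 0.

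The signalling path to calcium release, on which Itpr1 and Car8 act, did not share 1 direction. Of its 13 genes, 8 passed the coronal threshold, 3 with a negative and 5 with a positive linear term. The share of all probes was 19.8%, with 7.44% negative and 12.4% positive. The median term of the path was 0.03. With median centring, and likewise with the slide as a block, 3 of 13 passed, all positive, against 7.29% and 4.03% of all probes. Homer3, a postsynaptic scaffold that binds Itpr1, had -1.17 ± 0.27 (SE). Inpp5a, which degrades inositol trisphosphate, had -0.67 ± 0.19 (SE) and Ryr1, the other type of calcium release channel, -0.84 ± 0.42 (SE), though Ryr1 was highest in fraction 5 and its term was -0.25 with quantile normalization. Gnaq and Gna11, the G proteins that activate phospholipase C, rose by 1.36 ± 0.32 and 0.95 ± 0.26 (SE). Itpka, the kinase that phosphorylates inositol trisphosphate, rose by 1.46 ± 0.36 (SE) and Atp2a2, the pump that refills the store, by 1.10 ± 0.38 (SE).

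Among 17 relatives of the 6 genes by family or name, 7 passed the coronal threshold, 3 with a negative and 4 with a positive linear term. The share of all probes was 19.8%, with 7.44% negative and 12.4% positive. With median centring 3 passed (1 negative, 2 positive), of which Skor1 and Car11 were among the 7, and with the slide as a block Skor1 alone did, 1 of 17, near the 4.03% of all probes (7.29% with median centring). Skor1, the paralogue of Skor2, had a term of -6.31 ± 0.95 (SE), adjusted p = 0.0018, from 3.51 in fraction 2 to -2.79 at its lowest. Itpr2 had -1.51 ± 0.17 (SE), adjusted p = 0.0003, but 0.053 with median centring, and its difference from Itpr1 was not tested. Car10 had -1.56 ± 0.34 (SE) and Car11, another carbonic anhydrase-related gene, rose by 1.38 ± 0.46 (SE). Slc1a4 and Slc1a1, transporters of the family of Slc1a6, rose by 1.67 ± 0.42 and 0.93 ± 0.39 (SE), and Ppp1r1a, a phosphatase 1 inhibitor, by 0.76 ± 0.25 (SE). For horizontal position 3 of the 17 passed (Itpr2, Car10 and Pcp4), all with a positive term, against 6.57% of all probes.

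The profiles of the 6 genes were compared by Pearson r over the 22 fractions, as a description. The genes share arrays and scaling, and neighbouring fractions share tissue, so no test is attached. The median over the 15 pairs was 0.43. Pcp2 and Car8 were most alike (0.82), followed by Ppp1r17 with Slc1a6 (0.62) and Pcp2 with Ppp1r17 (0.61). Itpr1 with Skor2 had the lowest value, -0.01. In the coronal series alone Pcp2 and Skor2 reached 0.98, although 7 of the 10 Skor2 values were not above background, and all 15 pairs were above 0. In the horizontal series all 5 pairs with Itpr1 were below 0, from -0.64 to -0.19.

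**Figure D4:**
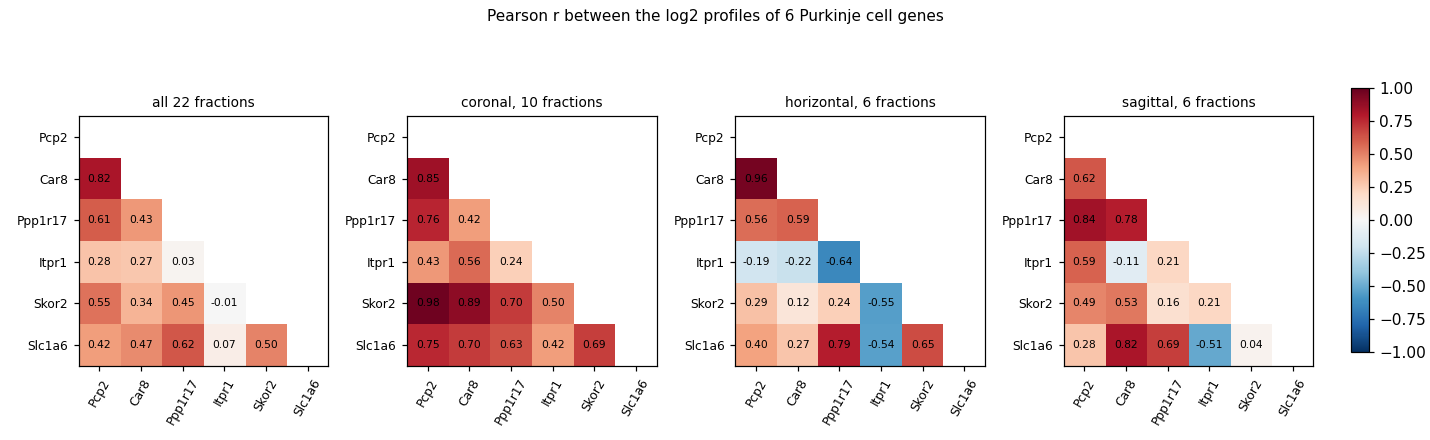
Pearson r between the log2 profiles of each pair of the 6 genes (colour and printed value, from -1 to 1) over all 22 fractions and within the coronal (10), horizontal (6) and sagittal (6) series. Pairs are positive throughout the coronal panel, and the row and column of Itpr1 turn negative in the horizontal panel.

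Among 16677 genes that passed the filter, the 3 most like Pcp2 were En2, a cerebellar homeobox gene and a member of the granule list (r = 0.97), Tex14 (0.97) and Arhgef33 (0.96), and 165 genes had r above 0.85. The nearest to Car8 were Sgo2a (0.93, detected in 13 of 22 fractions), Nfkbie (0.90) and Aurka (0.90), with 42 genes above 0.85. Sgo2a and Aurka act in chromosome segregation and mitosis. For Slc1a6 they were Lgi3 (0.93), Dnajc21 (0.91) and Plxdc1 (0.91), with 22 above 0.85. For Ppp1r17 they were Nkx6-2 (0.88), Krt25 (0.87) and Rassf6 (0.87), detected in 16, 13 and 18 fractions, with 5 above. Itpr1 and Skor2 had no gene above 0.85. The nearest to Itpr1 were Nup133 (0.83), Msantd3 (0.81) and Fancf (0.76), and to Skor2, whose values were mostly below detection, Hsd11b2 (0.84), Mutyh (0.83) and Zmat5 (0.79).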

How the data were processed

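Total RNA of 22 fractions was labelled with Cy3 and hybridised to Agilent SurePrint G3 Mouse arrays designed on mm9. Per the file headers, the authors extracted background-subtracted spot intensity values with Feature Extraction 10.10.1.1. A deposited table of log2 values, set against the scanner files, held the same intensities scaled by each array's 75th percentile, and served as an alternative. From the scanner files, control and outlier spots were left out, spots of a probe were averaged as log2, and the 75th percentile over the 55600 analysed probes was subtracted. Symbols came from RefSeq accessions of another assembly (GRCm38.p6), and 26553 of 28087 RefSeq probes matched.

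Position was tested with limma 3.58.1 in R 4.3.3 in 1 model of the 22 arrays. Each series had its own intercept and its own linear and quadratic terms in slab number, which left 13 residual degrees of freedom. Pooled fractions were placed at the midpoint of their slabs. Benjamini-Hochberg adjustment ran over the 39602 probes with detection in 1 or more fractions of all 3 series, with a threshold of 0.05. With 1 mouse per series and 1 array per fraction, p-values measure scatter around a smooth curve and not animals, and precision is limited by the number of arrays. No test of position is named in the methods of the study. The model was tested on simulated data.

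The 6 genes and all gene lists were chosen with earlier results of these data known. From the lists, named genes are the 6 with the largest fitted coronal range past the threshold and the 2 with the smallest range (wider Purkinje list), those past the coronal threshold, at most 8 a list (calcium path, relatives), and the 3 highest r per gene. Other names (markers, Foxp2, Doc2b, Cacna1a and those past the horizontal threshold) were given to account for counts. Some genes of the lists are counted but not reported here by name. Alternatives were the scaling (median, quantile, none), normexp background correction with an offset of 50, on median signals because mean signals were not used here, the deposited table, the detection filter, the linear term alone, 1 series alone, in-range spike-in slopes only, the level of a dim spike-in control as a covariate, the slide as a block, another probe, an extent threshold of 2, and leaving out each array. "At least" folds set the higher level against the greater of the dim probe's own value and the lowest signal marked well above background on that array. Calculations used Python 3.11.15, numpy and pandas.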

Additional observations from a re-analysis of the deposited data

Results flagged for a closer look

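Within each series, a sample far from all others was looked for with Dixon's test, over 18 combinations of gene and series. Its usual rate of about 1 flag in 20 holds for independent values of 1 normal population. Fractions in order along an axis are not such values, so the number of flags has no chance rate to be set against. The test marked 3. Pcp2 in sagittal fraction 1 had 2.71, below 4.59 to 5.11 in the other sagittal fractions; that array also had an out-of-range spike-in slope (0.773), and its part in the value was not tested. Itpr1 in sagittal fraction 6 had 3.52, above 2.33 to 2.72 in the others. Both are pooled fractions, of slabs 1 and 2 and of slabs 7 to 9, and the part of pooling was not tested. Skor2 in horizontal fraction 5 had -2.28, with all other horizontal fractions not above background.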

How the results depend on the processing

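Along the coronal series Pcp2 was confined to the cerebellar slabs under the 3 scalings, normexp and the deposited table, the 5 alternatives that could have changed it. Skor2 was counted as confined in each too, but its detection flags do not change with these settings, so this says nothing of stability, and with normexp its highest value outside minus its maximum was only -0.44. The number that rise in forebrain went from 1 to 3 with median centring (Pcp2 by 1.10 and Itpr1 by 1.05 beside Ppp1r17) and to 2 without scaling (Itpr1 by 1.13). The number past the coronal threshold, 4 of 5, fell to 2 with median centring, with the linear term alone, with the coronal arrays alone, with in-range arrays only and with the slide as a block, and to 3 with the spike-in control covariate (Car8 lost, adjusted p = 0.071). It lay between 2 (without fraction 2) and 4 when single arrays were left out. Without coronal fraction 3, 4, 6 or 10 Car8 alone was lost, at adjusted p of 0.055, 0.050, 0.055 and 0.070. The number past the horizontal threshold, 1 of 5, was 3 without scaling and 0 with the linear term alone, the horizontal arrays alone, in-range arrays only and the spike-in control covariate. With in-range arrays only, the linear term of Slc1a6 changed sign (adjusted p = 0.96). That fit keeps horizontal fractions 4 to 6 alone, so its term is not the same quantity as the term over all horizontal fractions. Leaving out single arrays gave 0 to 2: Slc1a6 was lost without horizontal fraction 1 (0.071) or 5 (0.066), Pcp2 was gained without coronal 1 (0.036) or 3 (0.045), and Ppp1r17 without coronal 10 (0.024). No gene passed the sagittal linear term under any alternative, and leaving out single arrays gave 0 to 1 for the quadratic term (Ppp1r17 without coronal 10, adjusted p = 0.047). The cause of these changes was not tested. Over all probes, the 7857 coronal calls ranged from 637 (coronal arrays alone) to 9191 (normexp) and, with 1 array left out, from 4873 (coronal 6) to 10714 (coronal 1). The 2601 horizontal calls ranged from 0 (horizontal arrays alone) to 5362 (slide as a block) and from 9 (without horizontal 1) to 6522 (without coronal 2). The 4045 sagittal linear calls ranged from 0 to 6226 and the 12 quadratic calls from 0 to 908. The median r over pairs was 0.29 to 0.53 over all alternatives, within its jackknife SE of 0.15. No paired analysis was possible because fraction numbers are positions along different axes of different mice. Signal near background limits Skor2 and Ppp1r17.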
